A study of Rattus norvegicus with 12 samples.

Results

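Cited1, Elavl2, Nucks1 and Rac1 are SPG (spermatogonia) markers whose RNA was measured in rat testis under stress of different durations. They are the 4 genes left of the 12 SPG markers of the study's marker table when Stra8, Ccne2, Ccnd1, Cdk2ap2, Atad5, Tex19.1, Hspa5 and Slc25a31 were set aside, and that table holds 578 germ cell markers in all, with 181 for SPC (spermatocytes) and 385 for spermatids. The table took its markers from published single-cell data, not from the levels in these testes. Each of the 4 genes was found in the deposited transcript values by its counts in all 12 libraries, and together they have 13 of the 31715 transcripts measured.

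RNA sequencing was performed on whole testis of male SD (Sprague Dawley) rats, in 4 groups of 3 libraries. The age of 8 weeks is given for all groups alike, and the rats were fed for a time before the experiments began. Age at sampling is not given by group, so it cannot be told apart from stress duration. The stress was RS+IS, daily restraint followed by swimming in ice water, and it lasted 3 days, 14 days or 21 days. Control rats moved freely in their cages and, like the stressed rats, went without food and water during the hours of restraint. The study kept controls at each time point, but the labels give no time point for the 3 control libraries. All libraries were directional and made from total RNA after removal of ribosomal RNA. The labels do not say that the libraries come from separate animals, and the p-values measure only the spread between these libraries.

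Spermatogonia are the germ cells at the basement membrane of the seminiferous tubule, which divide by mitosis, renew themselves or enter meiosis as spermatocytes. Each of the 4 genes has known roles outside the germ line too. Cited1 is a transcriptional co-regulator that binds the coactivators CBP and p300, Elavl2 is an RNA-binding protein of the Elav (Hu) family that acts on mRNA stability and splicing, Nucks1 is a chromatin-associated nuclear protein phosphorylated by casein kinase and cyclin-dependent kinases, and Rac1 is a small GTPase that controls the actin cytoskeleton. In a whole testis, fewer cells of a type and less RNA per cell cannot be told apart.

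The sequences at the gene starts are shown for the 3 genes with a RefSeq promoter entry, to show what lies at the annotated start. Where transcription began in these testes, and for which transcript, was not measured. Each runs 5′ to 3′ on the gene's strand, from 250 bases before the gene start to 50 after it. Coordinates are of the RefSeq build GRCr8, at chrX:71394974-71395273 (minus strand) for Cited1, chr5:111202238-111202537 (minus strand) for Elavl2 and chr13:45897077-45897376 (plus strand) for Nucks1. Capitals mark matches on either strand to 4 motifs searched as plain letters: the TATA motif TATAAA, the CCAAT box, the GC box motif GGGCGG and the nuclear receptor motif AGGTCA. No 2 matches overlap.
Cited1: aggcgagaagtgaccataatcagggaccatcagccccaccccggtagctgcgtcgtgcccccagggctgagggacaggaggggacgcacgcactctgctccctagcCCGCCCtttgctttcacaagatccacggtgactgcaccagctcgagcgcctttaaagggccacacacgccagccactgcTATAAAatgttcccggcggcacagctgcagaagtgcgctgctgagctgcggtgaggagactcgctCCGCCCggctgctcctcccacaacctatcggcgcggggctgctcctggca
Elavl2: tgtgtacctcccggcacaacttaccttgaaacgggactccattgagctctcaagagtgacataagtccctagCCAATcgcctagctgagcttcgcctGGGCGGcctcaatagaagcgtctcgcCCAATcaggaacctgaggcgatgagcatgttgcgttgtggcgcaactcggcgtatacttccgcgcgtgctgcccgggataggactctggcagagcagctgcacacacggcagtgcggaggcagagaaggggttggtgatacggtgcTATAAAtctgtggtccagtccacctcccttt
Nucks1: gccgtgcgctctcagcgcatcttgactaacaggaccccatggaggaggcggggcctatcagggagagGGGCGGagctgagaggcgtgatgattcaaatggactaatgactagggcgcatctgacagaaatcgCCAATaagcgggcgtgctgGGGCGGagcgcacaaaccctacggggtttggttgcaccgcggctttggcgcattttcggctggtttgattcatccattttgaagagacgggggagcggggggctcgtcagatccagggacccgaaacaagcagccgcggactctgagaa
TATAAA was found 65 bases before the gene start in Cited1 and 20 bases after it in Elavl2, and in 14.2% of the 33469 promoters of the same length. CCAAT was found in 2 places in Elavl2 and 1 in Nucks1, against 37.5% of all promoters with a match. GGGCGG was found in each of the 3 genes, in 2 places in Cited1 and in Nucks1, against 33.1% of all promoters. AGGTCA was found in none of the 3, against 16.2% of all. The share of G and C was 64.3% in Cited1, 57.3% in Elavl2 and 59.7% in Nucks1, where the median of all promoters was 51.7%. These matches are letters in the reference sequence, and no binding was measured.

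The libraries held between 23908048 and 29404590 estimated counts. Spermatocyte and spermatid markers were high in every library, and none of the 7 and 6 markers looked at was at 0. Markers of somatic testis cells were not analysed here. Control 1 and 21-day 1 stood apart from the other libraries, with 1330 and 1332 of 18703 features over 1.5 times above the other 2 libraries of their group, where the other 10 libraries had between 233 and 451. They shared 464 of these features, 34.9% of those of control 1 and 34.8% of those of 21-day 1. Control 1 also carried the highest Cited1, Nucks1 and Rac1 values of the series. The comparisons of the 4 genes, of their main transcripts and of the marker lists with control are therefore given with and without it. For the minor transcripts this was done in part.

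The 4 genes differed in level. In the deposited TPM values, which are scaled to transcript length and can be set side by side between genes, the median over the 12 libraries was 38.6 for Cited1, 21.4 for Nucks1, 18.6 for Rac1 and 2.06 for Elavl2. By mean TPM, Cited1 stood above 89.2% of all features, Nucks1 above 81.6%, Rac1 above 80.1% and Elavl2 above 50.6%. The counts behind these levels ranged from 408 to 1358 for Cited1, 443 to 909 for Nucks1, 642 to 1039 for Rac1 and 149 to 238 for Elavl2. Counting error alone was at most 8.19% for Elavl2 and at most 4.95% for the other 3 genes. All further levels are in CPM (counts relative to library size, scaled by the TMM method), which serves to compare libraries and not genes.

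**Figure D1:**
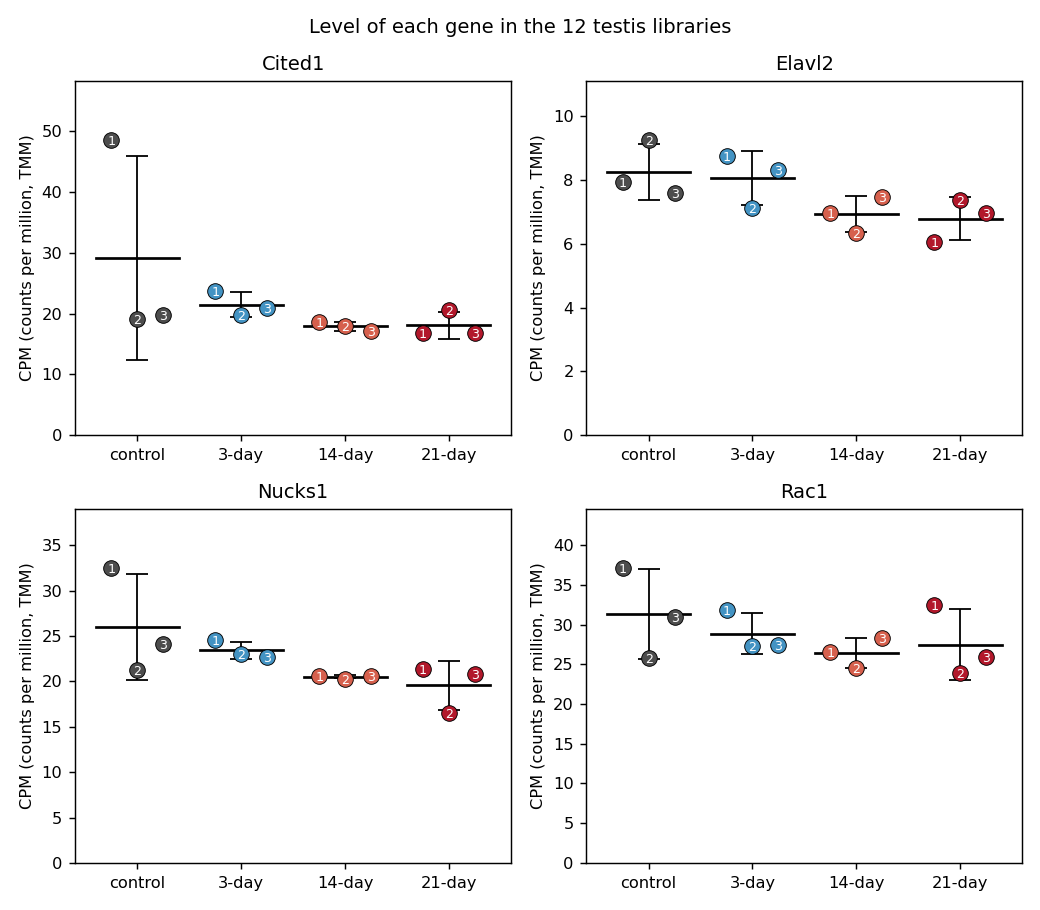
CPM of Cited1, Elavl2, Nucks1 and Rac1 in each of the 12 libraries by group, with points numbered by replicate, horizontal bars for the group mean and whiskers for the SD (n = 3). Cited1 in control 1 lies at 48.6, far above the other 11 libraries at 16.7 to 23.8. Elavl2 at 14 and 21 days reaches up to 7.46 and its control libraries begin at 7.58, a small gap.

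Cited1 was set apart by 1 library. Its CPM was 48.6, 19.2 and 19.8 in control 1, 2 and 3, and 23.8, 19.8 and 20.9 after 3 days. It was 18.6, 18.0 and 17.1 after 14 days and 16.7, 20.7 and 16.8 after 21 days. Control 1 was 2.49 times the mean of the other 2 control libraries and 2.04 times the second highest library of the series, which was 3-day 1. In 21-day 1, the other library that stood apart, Cited1 was 0.894 times the mean of 21-day 2 and 3. The control mean was 29.2 ± 16.8 (SD, n = 3), and the means after 3, 14 and 21 days were 21.5 ± 2.07, 17.9 ± 0.767 and 18.1 ± 2.26 (SD, n = 3 each). In order of CPM, control was followed by the 3-day, the 21-day and the 14-day stress group, and the libraries of all neighbours in this order overlapped. Further apart in the order, the 3-day libraries all lay above the 14-day libraries. In TPM, all libraries of 14 and 21 days lay under every control library, by a very small gap, from 38.615 in 21-day 2 to 38.627 in control 2. They also lay under every 3-day library, of which 3-day 2 was lowest at 42.9. Separations of all features were not counted in TPM.

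Elavl2 had the lowest level of the 4 and was nearly unaffected by control 1. Its CPM was 7.94, 9.25 and 7.58 in the control libraries, 8.75, 7.12 and 8.32 after 3 days, 6.98, 6.34 and 7.46 after 14 days and 6.04, 7.38 and 6.95 after 21 days. Every library of the 14-day and 21-day stress groups lay under the lowest control library in CPM, and the 3-day libraries overlapped both sides. The gap was small, from 7.46 in 14-day 3 to 7.58 in control 3, at counting errors of 7.50% and 6.95%. In TPM the 21-day libraries overlapped with control, with 2.12 in 21-day 2 and 2.19 in 21-day 3 against 2.01 in control 3. Of these TPM values, 0.358 in 21-day 2 and 0.294 in 21-day 3 came from the transcript ENSRNOT00000093007.1, at 3.24 and 2.27 estimated counts. Without that part neither library reached control 3. The group means were 8.26 ± 0.879, 8.06 ± 0.845, 6.93 ± 0.562 and 6.79 ± 0.682 (SD, n = 3 each), in the order of stress duration from control to 21 days. Neighbours in that order overlapped.

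Nucks1 was highest in control 1 and lowest in 21-day 2. Its CPM was 32.5, 21.3 and 24.1 in the control libraries and 24.5, 23.1 and 22.7 after 3 days. After 14 days it was 20.6, 20.3 and 20.6, with the smallest SD relative to its mean of any gene and group here, and after 21 days it was 21.4, 16.5 and 20.8. All 3 libraries of 14 days lay under every library of the control and 3-day stress groups in CPM. In TPM, 14-day 1 at 20.8 lay above control 2 at 20.2, so 14 days overlapped with control and not with 3 days. In the 21-day stress group 2 of the 3 libraries lay under the lowest control library, and all 3 lay under the lowest 3-day library. The means were 26.0 ± 5.84 in control, 23.4 ± 0.953, 20.5 ± 0.182 and 19.6 ± 2.67 after 3, 14 and 21 days (SD, n = 3 each). Of the neighbours in this order, the 3-day and 14-day stress groups were apart and the others overlapped.

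Rac1 overlapped between all groups in CPM. Its CPM was 37.2, 25.8 and 31.0 in the control libraries, 31.9, 27.3 and 27.4 after 3 days, 26.5, 24.5 and 28.3 after 14 days and 32.5, 23.9 and 26.0 after 21 days. Control 1 was 1.31 times the mean of the other 2 control libraries, and 21-day 1 was 1.30 times the mean of the other 2 libraries of its group. The means were 31.3 ± 5.67 in control, 28.9 ± 2.61 after 3 days, 26.4 ± 1.91 after 14 days and 27.5 ± 4.49 after 21 days (SD, n = 3 each), and any 2 groups overlapped. In TPM, the 3-day libraries (lowest 18.9 in 3-day 2) lay above the 14-day libraries (highest 18.3 in 14-day 3). All other pairs of groups overlapped in TPM too.

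**Figure D2:**
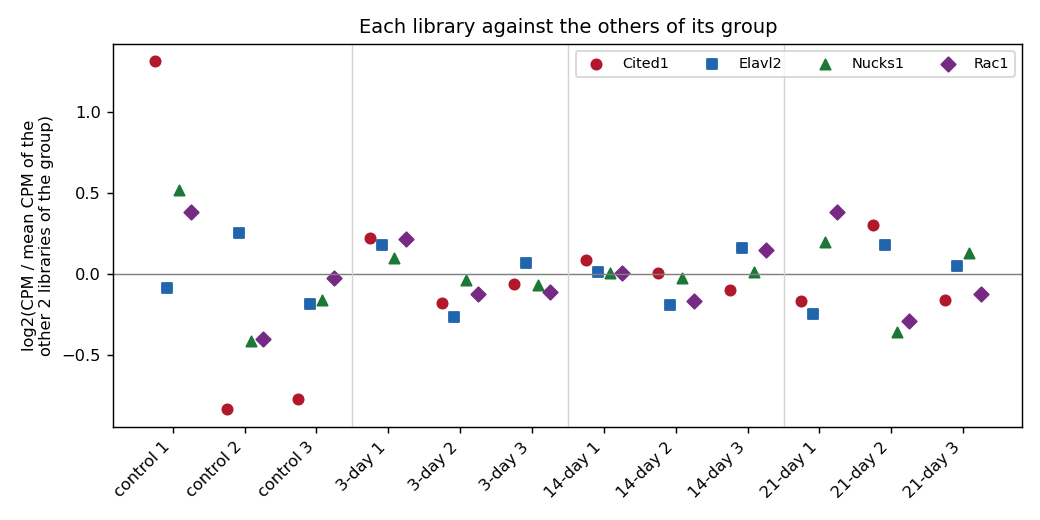
Log2 of each library's CPM over the mean CPM of the other 2 libraries of its group, for each of the 4 genes. Cited1 stands far above 0 in control 1 and below 0 in 21-day 1, and Rac1 is the highest of its group in both of these libraries, while Elavl2 is not above 0 in either.

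Against control, all 4 genes were lower on average after each duration, but no gene passed the threshold, and after 3 days the direction of Cited1, Nucks1 and Rac1 turned without control 1 and that of Elavl2 and Rac1 in TPM. Groups were compared by the quasi-likelihood test of edgeR on all features, with p-values adjusted by Benjamini and Hochberg over all of them and a threshold of 0.05. At that threshold 0 of the 4 genes passed in any comparison, and DESeq2 also gave 0. The 3 comparisons with control share the same control libraries and are not independent of each other.

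After 3 days, the log2 fold change was -0.45 (SE 0.359, adjusted p = 0.985) for Cited1, -0.04 (SE 0.136, adjusted p = 0.995) for Elavl2, -0.15 (SE 0.160, adjusted p = 0.985) for Nucks1 and -0.12 (SE 0.145, adjusted p = 0.986) for Rac1. Without control 1 it was 0.14 (SE 0.108) for Cited1, -0.06 (SE 0.152) for Elavl2, 0.05 (SE 0.0947) for Nucks1 and 0.02 (SE 0.121) for Rac1. The lower values of Cited1, Nucks1 and Rac1 after 3 days thus turned in sign when that 1 library was left out. None of the 4 had an unadjusted p under 0.05 and none was apart from control. Of all 21083 features tested, 0% passed the adjusted threshold, 2.01% were lower at an unadjusted p under 0.05, and 4.35% were lower in all 3 libraries than in any control library.

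After 14 days, Cited1, Elavl2 and Nucks1 were lower than control in 3 of 3 libraries without overlap in CPM, and Rac1 was not. In TPM, Nucks1 overlapped with control. The log2 fold change was -0.71 (SE 0.354, adjusted p = 0.458) for Cited1, -0.26 (SE 0.134, adjusted p = 0.468) for Elavl2, -0.35 (SE 0.155, adjusted p = 0.430) for Nucks1 and -0.25 (SE 0.139, adjusted p = 0.491) for Rac1. The unadjusted p-values of edgeR ranged from 0.0595 for Nucks1 to 0.112 for Rac1. An exact two-sided permutation test gave p = 0.1 for the 3 genes without overlap, the smallest value that 3 libraries against 3 allow. The median of the 4 genes was -0.30, where the median of all features was -0.01. Of all features, 8.75% were lower than control without overlap, 4.87% were lower at an unadjusted p under 0.05 (0 of the 4 genes), and 0% passed the adjusted threshold. Without control 1 the log2 fold change was -0.12 (SE 0.0829) for Cited1, -0.28 (SE 0.144) for Elavl2, -0.15 (SE 0.0871) for Nucks1 and -0.10 (SE 0.111) for Rac1. Leaving out that library thus brought Cited1, Nucks1 and Rac1 nearer to 0 and left Elavl2 at about the same value.

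After 21 days, Elavl2 was the 1 gene of the 4 that lay under control without overlap in CPM (exact permutation p = 0.1). In TPM it overlapped, by a transcript of few counts, and Cited1 lay under control by a very small gap. The log2 fold change was -0.70 (SE 0.363, adjusted p = 0.421) for Cited1, -0.29 (SE 0.149, adjusted p = 0.421) for Elavl2, -0.42 (SE 0.181, adjusted p = 0.357) for Nucks1 and -0.20 (SE 0.165, adjusted p = 0.593) for Rac1. The median of the 4 was -0.35, where the median of all features was -0.0031. Without control 1 the values were -0.12 (SE 0.125) for Cited1, -0.32 (SE 0.167) for Elavl2, -0.23 (SE 0.143) for Nucks1 and -0.06 (SE 0.161) for Rac1. Of all features, 9.69% were lower than control without overlap, 5.71% were lower at an unadjusted p under 0.05 (0 of the 4 genes), and 0.0189% passed the adjusted threshold.

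**Figure D3:**
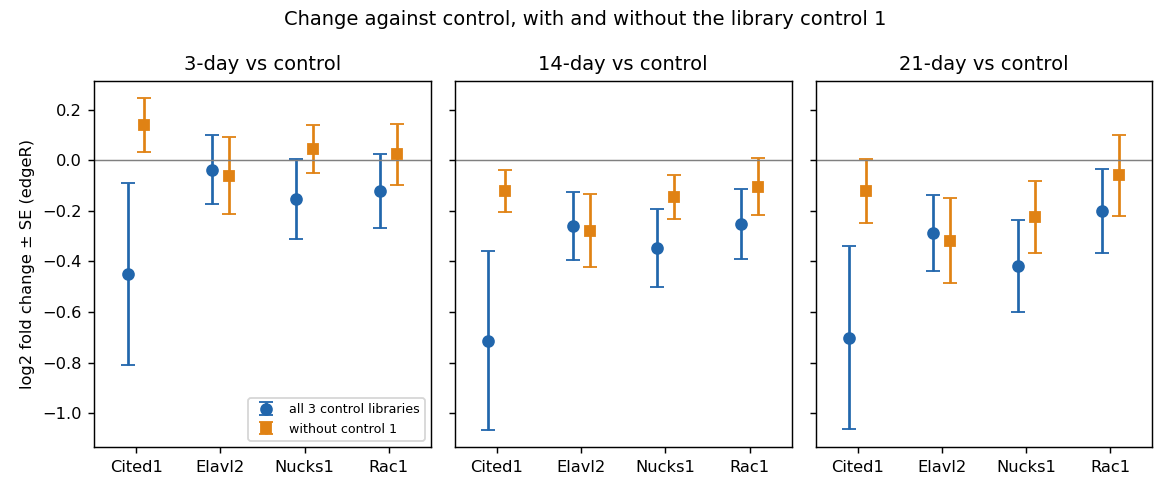
Log2 fold change against control after 3, 14 and 21 days from edgeR, with the SE as whiskers, for fits with all 3 control libraries (circles) and without control 1 (squares). Cited1 moves from -0.71 to -0.12 after 14 days and from -0.70 to -0.12 after 21 days, and Elavl2 stays between -0.26 and -0.32 in these 4 fits.

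The study calls stress of 14 and 21 days chronic, and the 6 libraries of both groups were also set against the 3 control libraries. The log2 fold change was -0.71 (SE 0.254, adjusted p = 0.161) for Cited1, -0.28 (SE 0.110, adjusted p = 0.193) for Elavl2, -0.39 (SE 0.128, adjusted p = 0.136) for Nucks1 and -0.23 (SE 0.122, adjusted p = 0.322) for Rac1. In CPM, Elavl2 was lower than every control library in 6 of 6 libraries, and Cited1 and Nucks1 in 5 of 6. In TPM, Cited1 was lower in 6 of 6, by a very small gap, and Nucks1 overlapped with control. The 21-day libraries of Elavl2 overlapped with control in TPM by a transcript of few counts. The exact two-sided permutation test gave p = 0.0238 for Elavl2, the smallest that 6 libraries against 3 allow, p = 0.0476 for Nucks1, p = 0.0952 for Cited1 and p = 0.214 for Rac1, none of them corrected for the number of genes. By edgeR, Cited1, Elavl2 and Nucks1 had an unadjusted p under 0.05 (0.0189, 0.0289 and 0.0126), where 9.68% of all features were lower at that threshold. Of all features, 4.38% were lower without overlap and 1.62% passed the adjusted threshold.

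Leaving out control 1 took 2 of these 3 genes out of the unadjusted threshold. Cited1 then had a log2 fold change of -0.12 (SE 0.0926) and Nucks1 of -0.18 (SE 0.102). Elavl2 was at -0.29 (SE 0.127, adjusted p = 0.304 from edgeR) with an unadjusted p of 0.0453, and Rac1 at -0.08 (SE 0.122). Without both control 1 and 21-day 1, 0 of the 4 genes had an unadjusted p under 0.05.

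The comparisons between durations do not use the control libraries. From 3 to 14 days, Cited1 had a log2 fold change of -0.27 (SE 0.0921, unadjusted p = 0.0209, adjusted p = 0.310 from edgeR) and Nucks1 of -0.20 (SE 0.0682, unadjusted p = 0.0215, adjusted p = 0.312 from edgeR), each at the unadjusted threshold alone and without overlap. The values of Elavl2 and Rac1 were -0.23 (SE 0.126) and -0.13 (SE 0.0935). Both genes overlapped in CPM, and Rac1 was apart in TPM. Of all features, 9.48% were lower without overlap, 5.67% at an unadjusted p under 0.05 and 0% at the adjusted threshold. Without 3-day 1, the highest library of its group for all 4 genes, 0 of the 4 had an unadjusted p under 0.05.

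From 3 to 21 days, Nucks1 was lower without overlap, with a log2 fold change of -0.29 (SE 0.115, unadjusted p = 0.0397, adjusted p = 0.280 from edgeR). Cited1 was at -0.28 (SE 0.119), Elavl2 at -0.27 (SE 0.141) and Rac1 at -0.10 (SE 0.133), all with overlapping libraries in CPM. In TPM, Cited1 did not overlap. Of all features, 10.4% were lower without overlap, 8.33% at an unadjusted p under 0.05 and 0.00471% at the adjusted threshold. Without 3-day 1 or without 3-day 3, the count of genes at the unadjusted threshold was 0.

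The 14-day and 21-day stress groups lay close together for all 4 genes. The log2 fold change from 14 to 21 days was 0.01 (SE 0.106) for Cited1, -0.03 (SE 0.136) for Elavl2, -0.07 (SE 0.110) for Nucks1 and 0.05 (SE 0.125) for Rac1, and the libraries overlapped. None of the 4 had an unadjusted p under 0.05, where 1.35% of all features were lower at that threshold, 4.46% were lower without overlap and 0% passed the adjusted threshold.

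With both chronic groups against the 3-day stress group, Cited1 was at -0.28 (SE 0.0867, adjusted p = 0.131), Elavl2 at -0.26 (SE 0.107, adjusted p = 0.225), Nucks1 at -0.25 (SE 0.0838, adjusted p = 0.150) and Rac1 at -0.12 (SE 0.102, adjusted p = 0.547). In CPM, Nucks1 was lower in 6 of 6 libraries than every 3-day library (exact permutation p = 0.0238), and Cited1 in 5 of 6. In TPM, both were lower in 6 of 6. At an unadjusted p under 0.05, 3 of the 4 genes were lower, where 10% of all features were. Of all features, 4.44% were lower without overlap and 0.0138% passed the adjusted threshold. Without 3-day 1, 0 of the 4 genes were at the unadjusted threshold.

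Each gene was carried mainly by 1 transcript. The files split reads between transcripts of a gene by estimation, so shares of minor transcripts are uncertain. For Cited1, ENSRNOT00000004263.7 (851 bases) held between 85.7% and 93.6% of the gene's counts. For Elavl2, ENSRNOT00000092743.1 (3605 bases) held between 62.5% and 76.7% and ENSRNOT00000009034.7 (4147 bases) between 12.9% and 36.9%. For Nucks1, ENSRNOT00000075674.2 (1711 bases) held between 88.6% and 94.1%, and for Rac1, ENSRNOT00000001417.5 (2078 bases) between 91.3% and 96.7%. Shares of TPM were lower for Nucks1 (64.2% to 78.7%) and Rac1 (70.8% to 86.1%). For the main transcripts of Cited1 and Elavl2 they were 88.5% to 94.9% and 61.0% to 79.1%. When each transcript was tested as its own feature, none of the 13 passed the adjusted threshold of edgeR in any comparison.

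The main transcript of Elavl2 lay lower in the chronic stress libraries than in control and the second one varied. ENSRNOT00000092743.1 had a CPM of 5.98, 6.80 and 5.82 in the control libraries, 6.15, 5.24 and 5.21 after 3 days, 4.96, 4.68 and 4.95 after 14 days and 4.54, 5.25 and 4.76 after 21 days. All 6 chronic stress libraries lay under all 3 control libraries, and the 3-day libraries reached from the one to the other. The log2 fold change against control was -0.36 after 14 days (SE 0.139, unadjusted p = 0.0364, adjusted p = 0.385) and -0.36 after 21 days (SE 0.154, unadjusted p = 0.0517, adjusted p = 0.355), from edgeR over all transcripts. Of all transcripts, 8.78% after 14 days and 9.7% after 21 days were lower than control without overlap, and 4.86% and 5.73% were lower at an unadjusted p under 0.05. For both chronic groups together the log2 fold change was -0.36 (SE 0.106, unadjusted p = 0.00642, adjusted p = 0.102 from edgeR), where 4.4% of all transcripts were lower without overlap and 9.7% at an unadjusted p under 0.05. Without control 1 it was -0.37 (SE 0.147) after 14 days, -0.39 (SE 0.171) after 21 days and -0.38 (SE 0.120, unadjusted p = 0.0120, adjusted p = 0.186 from edgeR) for both. ENSRNOT00000009034.7 ranged from 0.873 to 3.07 CPM with overlap between all groups and a log2 fold change of -0.02 (SE 0.280) after 14 days and -0.49 (SE 0.355) after 21 days. Without control 1 it was at -0.06 (SE 0.310) and -0.54 (SE 0.416). Its lowest value was in 21-day 3, where a transcript that was at 0 in 10 libraries, ENSRNOT00000093032.1, reached 1.19 CPM and 17.1% of the Elavl2 counts. The last of the Elavl2 transcripts, ENSRNOT00000093007.1 (646 bases), was at 0 in 6 libraries and had at most 3.24 counts. It still held up to 16.9% of the gene's TPM, so the TPM of Elavl2 depends in part on few counts.

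The main transcripts of Cited1 and Nucks1 were lower on average in the chronic stress libraries than in control and after 3 days, as their genes were. Some separations below are of the transcripts alone. In CPM, the genes had 5 of 6 libraries lower for Cited1 against 3 days and for Nucks1 against control. In TPM, the gene Cited1 had 6 of 6 lower than 3 days. For Cited1, ENSRNOT00000004263.7 had 45.5 CPM in control 1 and between 14.8 and 21.9 in the other libraries, so the high value of that library lay in the main transcript. All 6 chronic stress libraries were under all 3 libraries of the 3-day stress group, with a log2 fold change of -0.32 (SE 0.0823, unadjusted p = 0.00282, adjusted p = 0.0948 from edgeR). Of all transcripts, 4.47% were lower without overlap in that comparison and 10% were lower at an unadjusted p under 0.05. Against control its log2 fold change was -0.74 (SE 0.373) after 14 days and -0.76 (SE 0.379) after 21 days, and -0.11 (SE 0.0882) and -0.14 (SE 0.116) without control 1. The other Cited1 transcripts were ENSRNOT00000076391.1 (607 bases), with means of 0.639 CPM in control and 0.687, 0.381 and 0.646 after 3, 14 and 21 days, and ENSRNOT00000077678.1 (1571 bases), with 1.80 in control and 1.13, 1.40 and 1.47. The latter was lower than control without overlap after 3 days, as 4.38% of all transcripts were, at a log2 fold change of -0.67 with an unadjusted p of 0.0508, and of -0.47 (SE 0.293) without control 1. For Nucks1, ENSRNOT00000075674.2 had a lower CPM in all 6 chronic stress libraries than in every control and every 3-day library. The gap to control was small, from 19.2 in 21-day 3 to 19.3 in control 2. In TPM the transcript overlapped between chronic stress and control, with 14.4 in 21-day 3 and 13.9 in control 2. Its log2 fold change was -0.41 against control (SE 0.131, adjusted p = 0.129) and -0.26 against 3 days (SE 0.0861, adjusted p = 0.142), from edgeR, with unadjusted p-values of 0.0112 and 0.0115. Of all transcripts, 4.4% were lower than control and 4.47% lower than 3 days without overlap, and 9.7% and 10% were lower at an unadjusted p under 0.05. Without control 1 the value against control was -0.19 (SE 0.0995), with an unadjusted p of 0.0942. ENSRNOT00000079707.1 (732 bases), the minor Nucks1 transcript, had means of 2.13, 2.01, 1.99 and 1.79 CPM from control to 21 days and overlapped between control and each stress group.

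The 3 minor transcripts of Rac1 had higher means in each stress group than in control, at few counts, where the mean of the gene was lower. ENSRNOT00000092628.1 (688 bases) had 4, 9 and 10 estimated counts in the control libraries, 16, 14 and 15 after 3 days, 13, 16 and 11 after 14 days and 16, 19 and 18 after 21 days. In CPM this was 0.143, 0.350 and 0.366 in control, against 0.461 to 0.714 in the 9 stress libraries, all of them above all 3 control libraries. The log2 fold change was 0.89 (SE 0.457, adjusted p = 0.979) after 3 days, 0.84 (SE 0.455, adjusted p = 0.481) after 14 days and 1.25 (SE 0.458, adjusted p = 0.301) after 21 days, from edgeR. After 21 days the unadjusted p was 0.0291, and after 3 and 14 days it was over 0.05. Of all transcripts, 5.47%, 11.2% and 12.7% were higher than control without overlap after 3, 14 and 21 days, and 8.49% were higher at an unadjusted p under 0.05 after 21 days. Without control 1, which held the lowest of the values, the log2 fold change was 0.58 (SE 0.449), 0.53 (SE 0.440) and 0.93 (SE 0.439), with no unadjusted p under 0.05.
ENSRNOT00000087094.1 (1060 bases) had means of 0.491 CPM in control and 0.729, 0.615 and 0.843 after 3, 14 and 21 days, with a log2 fold change of 0.56 (SE 0.385), 0.31 (SE 0.424) and 0.77 (SE 0.385) and no overlap with control after 3 and 21 days. ENSRNOT00000092558.1 (545 bases) had means of 0.304 in control and 0.376, 0.310 and 0.391, and overlapped. Without control 1, where ENSRNOT00000092558.1 was highest, its log2 fold change was 1.13 (SE 0.582) after 3 days and 1.17 (SE 0.543) after 21 days, in place of 0.29 (SE 0.601) and 0.34 (SE 0.589). The main transcript, ENSRNOT00000001417.5, ranged from 21.8 to 36.0 CPM and overlapped between all groups, with -0.16 (SE 0.148), -0.28 (SE 0.142) and -0.25 (SE 0.174) against control. Without control 1 these were nearer to zero, at -0.01 (SE 0.121), -0.13 (SE 0.114) and -0.11 (SE 0.173). For ENSRNOT00000087094.1 the values without control 1 were 0.63 (SE 0.474), 0.39 (SE 0.523) and 0.83 (SE 0.479).

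**Figure D4:**
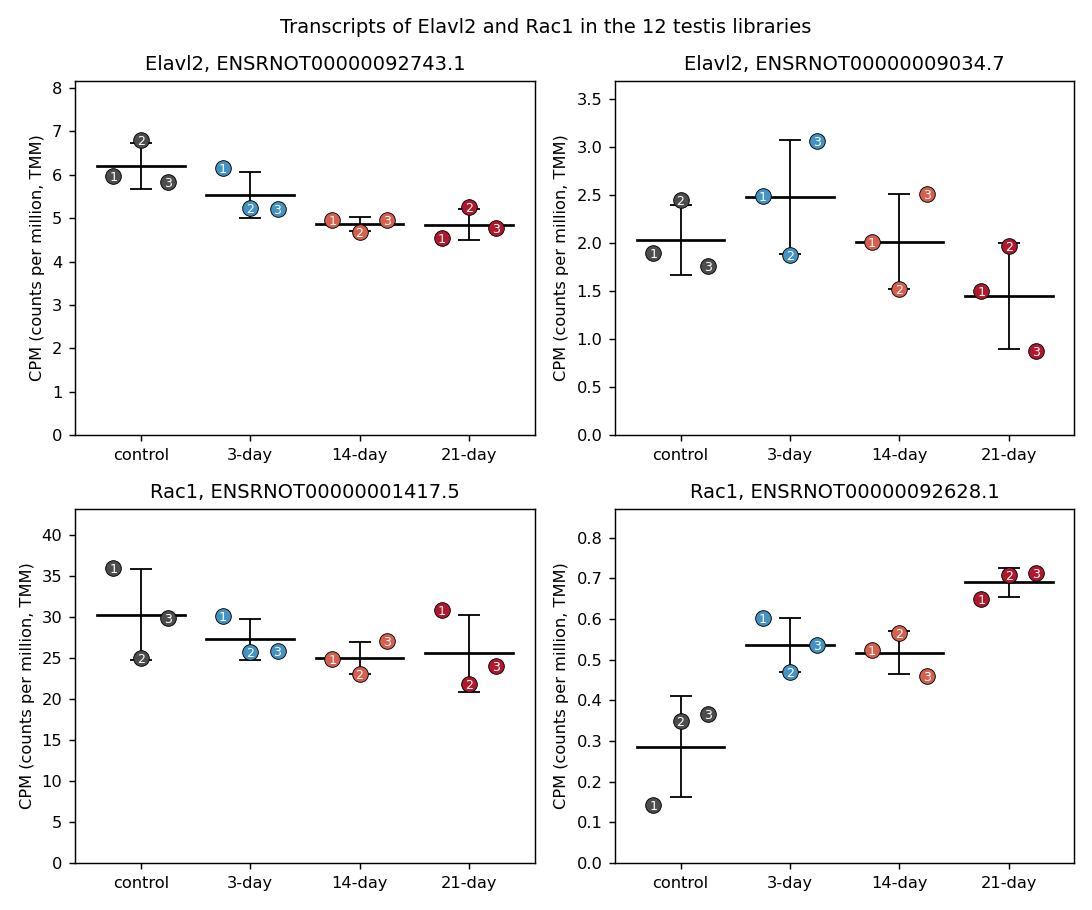
CPM of the 2 main transcripts of Elavl2 and of the main and 1 minor transcript of Rac1 in each library, with points numbered by replicate, bars for the group mean and whiskers for the SD (n = 3). The Elavl2 transcript ENSRNOT00000092743.1 lies lower in all libraries of 14 and 21 days than in control, and the Rac1 transcript ENSRNOT00000092628.1, at 4 to 19 counts per library, lies higher in all stress libraries than in control.

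Across libraries, the 4 genes formed no single pattern. Over the 12 libraries the correlation of log2 CPM was highest between Nucks1 and Rac1 (Pearson r = 0.85, Spearman correlation 0.80) and lowest between Elavl2 and Rac1 (r = 0.13, Spearman correlation 0.20). Cited1 and Nucks1 had r = 0.78 over the 12 libraries and 0.29 over the 11 without control 1. Nucks1 and Rac1 had r = 0.71 without it. The points share library, depth and group, and these values are a description.

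Among the other 574 markers found, the 3 most like each gene were taken by Pearson r. For Elavl2 they were the SPC markers Fam216a (r = 0.91), Thoc7 (r = 0.89) and Cox7b2 (r = 0.87), and without control 1 Fam216a (r = 0.92), Thoc7 (r = 0.89) and Pbk (r = 0.87), where Thoc7 is a subunit of the mRNA export complex TREX and Pbk a mitotic kinase. For Rac1 they were the spermatid marker Tfam (r = 0.87), the mitochondrial transcription factor, then Nucks1 (r = 0.85) and Rasa3 (r = 0.82), and without control 1 Aprt (r = 0.83), Tfam (r = 0.82) and Rasa3 (r = 0.75). For Nucks1 they were Rac1 (r = 0.85), Tfam (r = 0.84) and Cited1 (r = 0.78), and without control 1 Tfam (r = 0.83), Stra8 (r = 0.79) and Coprs (r = 0.73). For Cited1 the list changed in full with control 1. With it the markers were Hspa5 (r = 0.84), Nucks1 (r = 0.78) and Nubp2 (r = 0.71), and without it the SPC markers Cox7b2 (r = 0.88), the RNA helicase gene Ddx25 (r = 0.88) and Sycp3 (r = 0.87), which encodes a protein of the synaptonemal complex.

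Of the 8 other SPG markers, 4 were lower than control at an unadjusted p under 0.05 after 14 days and 5 after 21 days, where 4.87% and 5.71% of all features were. Without control 1 the counts were 3 and 5, and the share of all features is not given for those fits. The medians of the 8 markers were -0.23 and -0.31, and -0.13 and -0.22 without control 1. Among the 4 genes described here the count was 0 after both durations, and this difference between the lists was not tested. After 14 and 21 days, Stra8 was at -0.30 (SE 0.106) and -0.63 (SE 0.123), and Tex19.1 at -0.34 (SE 0.0974) and -0.39 (SE 0.105). Hspa5 was at -0.22 (SE 0.0910) and -0.26 (SE 0.0863). Ccne2, the cyclin E2 gene of the entry into S phase, was at -0.27 (SE 0.0702) after 14 days and -0.37 (SE 0.0708) after 21 days. It was the 1 SPG marker of the 12 past the adjusted threshold when both chronic groups were set against control, at -0.32 (SE 0.0642, adjusted p = 0.0416 from edgeR), where 1.62% of all features passed. Without control 1 it was at -0.32 (SE 0.0742) and no longer passed (adjusted p = 0.107 from edgeR). For Stra8, which is also among the 8, the deposited TPM is not the one its count implies in the libraries of 14 and 21 days.

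The summed TPM of the SPG markers other than Stra8 ranged from 567 to 733 in the control libraries, 584 to 613 after 3 days, 499.6 to 552 after 14 days and 476 to 522 after 21 days. The summed TPM of the 6 spermatid markers looked at, Tnp1, Tnp2, Prm3, Acrv1, Akap4 and Odf1, ranged from 27406 to 34360 in control, 27749 to 29941 after 3 days, 34129 to 37780 after 14 days and 37988 to 40591 after 21 days. Control and 14 days overlapped in this sum, and Tnp1, at 16783 to 24862 TPM, makes up most of it. That of the 7 SPC markers ranged from 2712 to 2860 in control, 2863 to 2931 after 3 days, 2737 to 2746 after 14 days and 2506 to 2626 after 21 days. These sums cover few markers, and their part in the values of the 4 genes was not tested.

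Markers with roles near those of the 4 genes were counted in the same way. After 3 days against control, none of them passed an unadjusted p of 0.05. At that threshold the share of all features that were higher was 7.2% after 14 days and 8.47% after 21 days, and the share that were lower was 4.87% and 5.71%, so a count of 1 in a list of 12 to 17 is near that background. Of 17 RNA-binding and translation markers, set beside Elavl2, 1 was higher and 0 were lower at an unadjusted p under 0.05 after 14 days and again after 21 days. It was Rbms1, a single-stranded nucleic acid binding protein, at 0.14 (SE 0.0554) and 0.16 (SE 0.0613). The median of the 17 was 0.02 after 14 days and 0.06 after 21 days, and -0.05 and -0.01 without control 1.
Of 12 markers of actin and small GTPase regulation, set beside Rac1, 1 was higher after 14 days and 2 after 21 days, with 0 lower and medians of 0.11 and 0.13 (0.06 and 0.09 without control 1). Mical3, an oxidoreductase that acts on actin, was at 0.20 (SE 0.0535) and 0.34 (SE 0.0648), and Arhgef6, an exchange factor for Rac1 and Cdc42, was at 0.35 (SE 0.137) after 21 days.
Of 14 chromatin and DNA repair markers, set beside Nucks1, 1 was higher after 14 days, and 1 was higher and 2 were lower after 21 days. Nabp1, a single-stranded DNA binding protein, was at 0.19 (SE 0.0720) and 0.22 (SE 0.0739). The median of the 14 was 0.0036 after 14 days and -0.08 after 21 days, and -0.02 and -0.13 without control 1. Xrcc4, of DNA end joining, was at -0.43 (SE 0.180) after 21 days.
Of 17 transcription factors and co-regulators, set beside Cited1, 0 passed after 14 days and 1 was higher after 21 days, Spz1, a basic helix-loop-helix factor of the testis, at 0.27 (SE 0.109). Their medians were 0.07 and 0.02, and -0.02 and -0.04 without control 1. None of these markers passed the adjusted threshold after 14 or 21 days (edgeR). Without control 1, the count of lower markers after 3 days went from 0 to 5 for RNA binding, 2 for actin and 4 for transcription factors. After 14 days it went from 0 to 1 in the lists of RNA binding, chromatin and transcription factors, and the higher count was 0 for RNA binding and for chromatin and 1 for transcription factors. After 21 days no marker of RNA binding or of the transcription factors passed, 1 actin marker was higher and 1 lower, and of the chromatin markers 3 were lower and 0 higher. The share of all features in the fits without control 1 is not given here. These counts thus have no background to be read against and are not a result about the lists. Of the markers named here, Mical3 alone had an unadjusted p under 0.05 without control 1, at 0.20 (SE 0.0589) after 14 days and 0.33 (SE 0.0700) after 21 days.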

How the data were processed

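For each library, a deposited table lists 31715 Ensembl transcripts with estimated counts and the authors' TPM values, which add up to nearly the same total in each library (between 999982 and 999990 after 14 days, under the other libraries). Per the study's methods, reads were trimmed with Trimmomatic, aligned to Rnor_6.0 with HISAT2 and counted with HTSeq, with no versions given. Many deposited counts are fractional, and they refer to transcripts, a form those tools do not write, so the quantifier is not given in the sources used here. The tables name no genes. Of the 578 markers, 575 were found as runs of neighbouring transcripts whose counts added up to the marker table's counts in all 12 libraries within 1 count; where several runs did so (42 markers), TPM decided. Each of Cited1, Elavl2, Nucks1 and Rac1 matched 1 run. Marker transcripts were summed, which gave 31519 features.

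Estimated counts were rounded. Each comparison was fitted on its own groups with edgeR 4.0.16 (R 4.3.3): TMM, filterByExpr and the quasi-likelihood test, with Benjamini-Hochberg adjustment over all features. The SE is the log2 fold change divided by the square root of the F statistic. Log2 CPM used a prior count of 2, and exact two-sided permutation tests used log2 CPM per library. DESeq2 1.42.0 and limma 3.58.1 on log2(TPM + 1) were alternatives, besides RLE and total count scaling, no filter, at least 10 counts in every library, a prior count of 0.5, 1 fit of all 12 libraries, the replicate block and each library left out in turn. Fits of single transcripts, with and without control 1, and fits without control 1 and 21-day 1 together were chosen after seeing the data. The fits were tested on simulated data. Motifs were searched and tables joined in Python 3.11.15 (pandas 2.3.3, SciPy 1.17.1).

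The named genes are the 4 SPG markers given in the opening, all of their transcripts, the 3 markers most like each, and members of the role lists past an unadjusted p of 0.05 against control (at most 4 a list). The genes, lists and tests were chosen with earlier results of these data known, among them that control 1 stands apart. Within groups, chi-square over features divided by its degrees of freedom was at least 9.24 for every pair of libraries, and no library was counted as a copy of another. Authors' fold changes and p-values were not used. The values of 1 member of the chromatin list are not reported here.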

Additional observations from a re-analysis of the deposited data

Results flagged for a closer look

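Among the 6 libraries of the 14-day and 21-day stress groups, Nucks1 in 21-day 2 lay far below the others, at a CPM of 16.5 where the next lowest library was at 20.3. The gap was 0.774 of the range of the 6 libraries, above Dixon's 95% critical value of 0.625. Chance flags about 1 in 20 such groups, and the highest and lowest values of 4 genes were looked at. Rac1 was also lowest in 21-day 2, at 23.9, next to 24.5, without a gap of that size.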

How the results depend on the processing

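Of 479 values of the 4 genes' log2 fold changes under alternatives, 461 kept their direction and their side of the adjusted threshold, and the lowest adjusted p was 0.0503. The other 18 changed sign. After 3 days against control, leaving out 1 library gave -0.68 to 0.14 for Cited1, -0.11 to 0.047 for Elavl2, -0.28 to 0.046 for Nucks1 and -0.25 to 0.024 for Rac1, above 0 without control 1 (Cited1, Nucks1, Rac1) and without control 2 or 3-day 2 (0.043, Elavl2). With limma on log2(TPM + 1), Elavl2 was at 0.035 and Rac1 at 0.022. Between 21 and 3 days, Rac1 ranged from -0.21 to 0.00092 (the latter without 21-day 2). Between 21 and 14 days the ranges were -0.097 to 0.069 for Cited1, -0.094 to 0.052 for Elavl2, -0.14 to 0.038 for Nucks1 and -0.081 to 0.14 for Rac1. There, Cited1 was at -0.0022 with total count scaling and -0.017 with limma, and Elavl2 at 0.037 with limma. The cause was not tested.

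The count of the 4 genes at the adjusted threshold was 0 under every alternative run. The count at an unadjusted p under 0.05 moved. The share of all features at that threshold is not given for the alternatives, so their counts cannot be set against a background. With all 12 libraries in one fit it was 2 instead of 0 for 14 days and for 21 days against control, and 0 instead of 2, 1 and 3 for 14 days, 21 days and both against 3 days. With DESeq2 it was 1 and 2 against control after 14 and 21 days, and 1 and 0 against 3 days. With limma on log2(TPM + 1) it was 0 instead of 3 for both chronic groups against control and 1 instead of 3 against 3 days. Leaving out 1 library gave 0 to 3 after 14 days against control (3 without control 2, 1 without control 3), 0 to 2 after 21 days (2 without control 2, 1 without control 3), 1 to 4 for both (1 without control 1), 0 to 2 and 0 to 1 for 14 and 21 days against 3 days and 0 to 3 for both against 3 days (0 without 3-day 1 in all 3). Without control 1 and 21-day 1 the count for both chronic groups against control was 0.

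The groups share replicate numbers, but the deviations of same-numbered libraries correlated over 0.1 in every pair for none of the 6 comparisons of 2 groups, so the numbers were not taken as pairs. With the replicate block, the count at the unadjusted threshold after 21 days against control was 1 instead of 0, and 0 genes passed the adjusted threshold.

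Exon coordinates on Rnor_6.0 were not used here.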
